A study of Mus musculus with 13 samples.

Results

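The 300 regions described here are the open chromatin regions whose ATAC-seq enrichment ranked highest in H3.3 K27M over Control oligodendrocyte progenitor cells (OPCs), among 12751 autosomal regions that were open in all 13 libraries. They were chosen by measured values. Overlapping peaks of the 13 deposited lists were joined, and each library ranked its 12751 shared peaks by the deposited fold enrichment as a percentile, where 100 is the strongest. The score of a peak was its mean percentile in K27M minus its mean percentile in Control, averaged over brainstem and telencephalon, and the 300 highest scores were kept. Because the score chose the peaks, genotype differences at these peaks are a description and carry no test.

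The cultures came from pups at postnatal day 5 to 7 of an AMGFAP-Cre;K27M cross (the study writes hGFAP-Cre), in which Cre recombinase, active in neural stem and progenitor cells, switches on the K27M mutation at the endogenous H3.3 gene H3f3a (also H3-3a). The study describes Control animals as littermates. Brains were pooled by region and genotype, so a library is a culture and not an animal. OPCs were bound to a dish coated with an antibody to PDGFRa after depletion of endothelial cells and microglia, and all cultures were kept in proliferation medium containing forskolin, CNTF, neurotrophin-3 and PDGF, with no differentiation. The groups were Control brainstem (cultures 51, 59 and 61), K27M brainstem (41, 59 and 61), Control telencephalon (51, 59 and 61) and K27M telencephalon (41, 51, 59 and 61), the last 2 labelled cortex.

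OPCs divide in the postnatal brain and give rise to the oligodendrocytes that wrap axons in myelin. Histone H3.3 carrying methionine in place of lysine at position 27 inhibits the Polycomb repressive complex PRC2 and lowers the repressive mark H3K27me3 across the genome, and it is the driver mutation of diffuse midline glioma. ATAC-seq inserts adapters with the Tn5 transposase where DNA is accessible, which marks promoters and enhancers.

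The cultures carried open promoters of OPC genes. Pdgfra, the receptor used for purification, and the lineage factors Olig1, Olig2 and Sox10 had a promoter peak in 13 of 13 libraries, and Cspg4, which encodes NG2, in 3. Of 11 microglial markers, 8 had a promoter peak in 0 libraries, Csf1r, Cx3cr1 and C1qa among them, and 3 had one in some, which were P2ry12 (12 libraries), Tmem119 (4) and Aif1 (2). Of 12 endothelial and mural markers, 4 had one in 0 libraries, Cdh5 among them, and 8 had one in at least 1, up to 12 for Col1a1, 11 for Flt1, 10 for Kdr and 9 for Vwf. No gene of either list had one in all 13. A library held 0 to 3 of the microglial markers (1 to 3 in K27M and 0 to 2 in Control) and 2 to 6 of the endothelial and mural markers (2 to 6 in both genotypes), and their part in the results was not tested. Of 12 astrocyte markers, 11 had a promoter peak in at least 1 library and 4 in all 13, Gfap and Slc1a2 among them. Of 14 neuronal markers, 14 had one in at least 1 library and 7 in all 13, Snap25 and Syt1 among them. An open promoter was thus not by itself a mark of OPC identity. A high percentile of fold was not the same as a wide or defining open region. The 6 shared peaks at Pdgfra, Olig1, Olig2 and Sox10 had mean percentiles of only 1.25 to 34.7, and the Sox10 promoter peak was 4659 bp wide with a mean percentile of 1.25. Across all shared peaks, width and mean percentile had a Spearman rho of -0.365, and width and score a rho of 0.00585. Peaks are not independent replicates, and the percentile orders them by enrichment averaged over a called peak.

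Windows of 300 bp were taken at the centre of the best covered part of each peak, and 6 are printed to show what kinds of DNA the regions hold. The first 3 are among the 5 highest scores and the last 3 are the peaks at which every K27M library exceeded every Control library. All are the plus strand of mm10, and capitals mark matches on either strand to the E-box CAGATG, the SOX motif ACAANGG or the TEAD motif GGAATG. The windows lie at chr11:117523072-117523371 upstream of the noncoding gene Gm11734, at chr3:82249934-82250233 between genes near Gucy1a1, at chr2:122631006-122631305 in an exon of Spata5l1, at chr15:25762070-25762369 in an intron of Myo10, at chr4:70259860-70260159 in an intron of Cdk5rap2, and at chr7:27336103-27336402 in an intron of Ltbp4.
Gm11734: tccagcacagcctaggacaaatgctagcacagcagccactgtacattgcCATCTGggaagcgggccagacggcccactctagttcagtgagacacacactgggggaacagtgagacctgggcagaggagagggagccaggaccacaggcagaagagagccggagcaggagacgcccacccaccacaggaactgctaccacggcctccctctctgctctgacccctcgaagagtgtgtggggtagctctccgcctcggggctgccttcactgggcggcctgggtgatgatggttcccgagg
Gucy1a1: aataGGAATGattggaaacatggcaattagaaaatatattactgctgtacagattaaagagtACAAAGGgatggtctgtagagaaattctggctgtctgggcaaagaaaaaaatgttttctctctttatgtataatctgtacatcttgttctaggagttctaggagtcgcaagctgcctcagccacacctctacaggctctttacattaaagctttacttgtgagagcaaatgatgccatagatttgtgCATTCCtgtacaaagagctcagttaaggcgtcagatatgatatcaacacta
Spata5l1: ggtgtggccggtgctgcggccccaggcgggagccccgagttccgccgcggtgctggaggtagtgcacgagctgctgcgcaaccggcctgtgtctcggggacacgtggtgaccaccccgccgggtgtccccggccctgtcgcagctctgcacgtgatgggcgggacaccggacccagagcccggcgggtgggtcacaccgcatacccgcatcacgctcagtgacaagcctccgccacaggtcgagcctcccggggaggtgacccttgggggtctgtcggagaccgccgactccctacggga
Myo10: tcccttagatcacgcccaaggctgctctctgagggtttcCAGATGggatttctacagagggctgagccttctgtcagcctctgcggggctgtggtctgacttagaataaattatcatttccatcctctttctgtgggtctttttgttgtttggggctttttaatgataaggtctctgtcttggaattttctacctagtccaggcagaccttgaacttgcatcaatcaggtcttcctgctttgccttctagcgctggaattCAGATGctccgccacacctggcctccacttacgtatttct
Cdk5rap2: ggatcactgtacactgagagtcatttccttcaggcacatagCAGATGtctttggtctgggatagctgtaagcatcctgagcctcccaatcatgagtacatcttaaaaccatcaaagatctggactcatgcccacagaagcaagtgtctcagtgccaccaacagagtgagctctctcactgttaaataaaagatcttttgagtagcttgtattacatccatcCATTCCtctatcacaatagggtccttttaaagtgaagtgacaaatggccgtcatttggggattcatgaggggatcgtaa
Ltbp4: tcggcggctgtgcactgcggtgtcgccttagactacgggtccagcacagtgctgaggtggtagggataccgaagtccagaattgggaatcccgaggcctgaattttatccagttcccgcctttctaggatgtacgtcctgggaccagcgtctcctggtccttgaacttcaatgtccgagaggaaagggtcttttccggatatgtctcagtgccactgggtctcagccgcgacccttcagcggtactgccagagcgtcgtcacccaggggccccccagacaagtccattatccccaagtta
The Spata5l1 window was rich in CpG, with a GC content of 72% and 31 CpG dinucleotides, whereas the Cdk5rap2 window had 43.7% and 2, the Gucy1a1 window 38.0% and 2, and the Ltbp4 window 57.3% and 17. The members were thus mixed in base composition.

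The second set is shown because the cyclic AMP response element (CRE), written TGACGTCA, was held by a larger share of the member windows than of all shared windows. CRE is the site of the CREB and ATF factors, which act downstream of cyclic AMP. Each line gives 30 bases of the plus strand around the element, in capitals, at the 12 members that held it.
Slc25a26: ttgttgtggtgTGACGTCAcgagttctgcc
Bnip3l: ccctcccttcgTGACGTCAgggccctcccg
Trp53inp2: gggcccctttgTGACGTCAcaatcagctgt
Fntb: cctctggtggcTGACGTCAgcggtccttcc
Gtpbp6: ggccgggcgttTGACGTCAggatgcaggac
Orc5: gcgcggtcgagTGACGTCAgggagccgcgc
Rcan1: ctggaaagaggTGACGTCAacaccttagtc
Tinf2: ggagggagctgTGACGTCAcgaggtcccct
Senp2: gcggaagaaggTGACGTCAacggcttctag
Appbp2: tgtgtgcgtcaTGACGTCAacgcgcgacgc
Ahcyl1: gcgcgctctggTGACGTCAacatgctgggc
Skp1a: ggccggctgtgTGACGTCAcgggctcgggg
All 12 elements lay in peaks at promoters, and each window held 1 of them. Of all 253 shared peaks with a CRE, 222 were at promoters. The values behind this set are given below with the other motifs.

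The members moved over the middle of the rank scale. Their scores ran from 17.7 to 41.4 percentile points with a median of 20.5, against -38.1 to 41.4 and a median of 0.119 over all shared peaks, of which 50.7% had a score above 0. The median percentile of the 300 members was 69.2, 66 and 62.7 in the K27M brainstem cultures 41, 59 and 61, and 65.1, 63.1, 65.7 and 58.9 in the K27M telencephalon cultures 41, 51, 59 and 61. It was 37.2, 33.6 and 43.7 in the Control brainstem cultures 51, 59 and 61, and 39.5, 33.3 and 41.5 in the Control telencephalon cultures. K27M libraries averaged 64.4 ± 3.22 (SD, n = 7) and Control libraries 38.1 ± 4.22 (SD, n = 6), a gap that the choice of peaks fixes. Within Control, culture 59 was lowest and culture 61 highest in both regions.

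**Figure D1:**
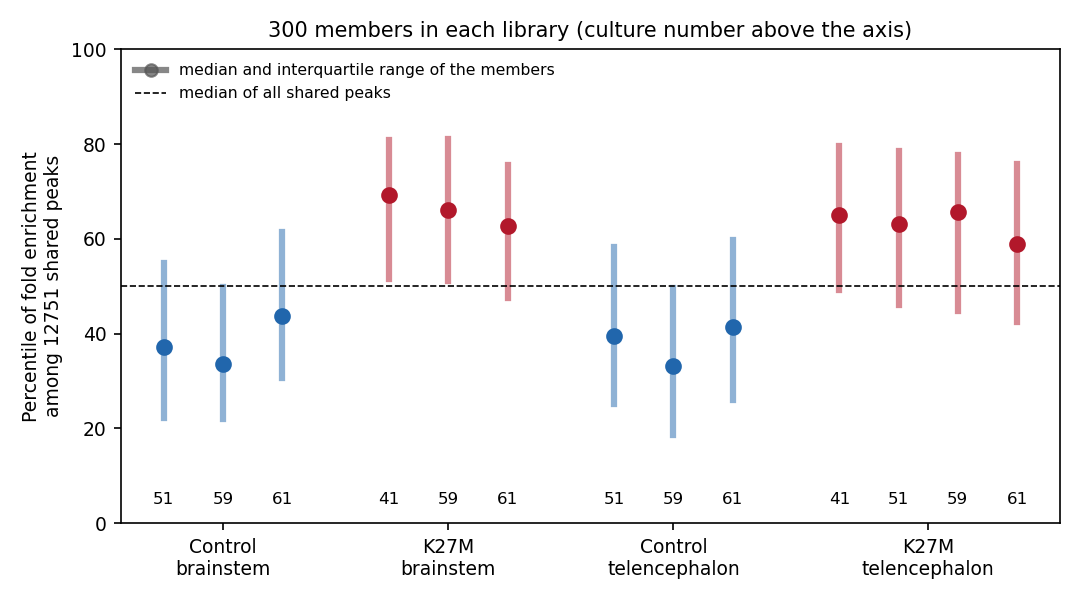
Percentile of fold enrichment (y axis, 0 to 100, rank among 12751 shared peaks) of the 300 members in each of the 13 libraries, grouped by genotype and region, with the culture number above the x axis. Points are medians and bars interquartile ranges over members, and the K27M medians lie between 58.9 and 69.2 and the Control medians between 33.3 and 43.7.

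In fold the differences were small. Fold relative to the median of each library was 1.12 times as high in K27M as in Control at the median member, with a range of 1.09 to 1.25, against a median of 0.999 over all shared peaks. Most members lay in the middle of the rank scale. In all, 271 members (90.3%) had a mean percentile between 25 and 75, against 61.3% of all shared peaks and 93% of the 300 peaks with the lowest scores. The SD of the percentile within a group had a median of 16.5 points at the members and 14.5 over all shared peaks, beside a median score of 20.5. The 3 members just inside the limit were the peaks near Creb5 and at the promoters of Myl12b and Itga1, each with a score of 17.7, and the peaks just outside were near Fndc3b (17.7), in Usp3 (17.7) and at 4833417C18Rik (17.6).

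The 15 highest scores were mixed in place. Of these, 6 were intergenic, 3 lay in the body of a gene and 6 at a promoter, and 3 of those promoters belonged to noncoding annotations. Over all 300 members, 69.3% were at promoters and 12.7% intergenic, against 69.2% and 12.6% of all shared peaks. The strongest, at chr11:117522677-117523805, was centred at -381 bp from the start of the long noncoding RNA gene Gm11734. Its percentiles were 82.2, 84.4 and 69.8 in K27M brainstem, 60.8, 83.0, 89.8 and 69.5 in K27M telencephalon, 30.1, 28.7 and 65.9 in Control brainstem, and 27.3, 10.4 and 53.0 in Control telencephalon. The K27M and Control values were apart within each region, but the Control culture 61 of brainstem (65.9) lay above the lowest K27M telencephalon library (60.8). In fold, K27M averaged 4.12 ± 0.53 (SD, n = 7) and Control 3.3 ± 0.72 (SD, n = 6).

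The peak with the next score, 36.5, lay at chr2:53382023-53383507, 162803 bp from the coding gene Arl6ip6. K27M percentiles were 77.0, 92.0 and 74.7 in brainstem and 68.4, 95.7, 19.6 and 89.0 in telencephalon, and Control percentiles 60.4, 47.9 and 32.5 in brainstem and 29.6, 49.8 and 8.9 in telencephalon. In telencephalon the groups overlapped through K27M culture 59 (19.6). A peak 266140 bp from Gata6, a transcription factor of heart and endoderm, scored 32.9, with K27M percentiles from 44.9 to 87.5 (median 73.7) and Control percentiles from 7.8 to 51.5 (median 42.8). A peak 103853 bp from Gucy1a1, which encodes a subunit of the nitric oxide receptor guanylate cyclase, scored 32.4. Its K27M values were 75.6, 71.0 and 35.8 in brainstem and 89.1, 79.6, 70.6 and 87.7 in telencephalon, and its Control values 22.2, 41.3 and 14.8 in brainstem and 70.8, 51.0 and 33.1 in telencephalon. The groups overlapped in each region by 1 library.

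The next peaks lay outside promoters annotated as coding. The peak near Rerg, a Ras-like growth inhibitor, scored 30.7 from 47.9 points in brainstem and 13.5 in telencephalon, and the peak near Kiz, which encodes a centrosomal protein, scored 30.6 from 18.2 and 43.1. The peak in the noncoding gene Gm33045 scored 30.3, from 19.6 and 41.0. The genotype by region interaction, given below, called none of them (limma adjusted p = 0.993 at each). The promoter peak of Spata5l1 (31.9), the intron peak of Eipr1 (29.4, from 42.2 and 16.5, limma interaction adjusted p = 0.987), the promoter peak of Gm44148 (29.1), the peak in H13 (28.9), which encodes signal peptide peptidase, and the peak near Pde10a (28.8), a cyclic nucleotide phosphodiesterase, complete the part of the 15 outside coding promoters.

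At coding promoters the highest scores belonged to Pipox, Csnk1g2 and Ambra1. Pipox, a peroxisomal oxidase of sarcosine, scored 29.7, with K27M percentiles of 75.3, 56.2 and 70.3 in brainstem and 71.4, 37.0, 73.9 and 19.6 in telencephalon, and Control percentiles of 58.7, 18.1 and 40.5 and of 21.7, 6.8 and 29.1. The promoter of Csnk1g2, a casein kinase, scored 29.4. There the K27M brainstem values (51.5, 78.7 and 43.0) all exceeded the Control brainstem values (11.1, 21.3 and 26.4), but in telencephalon the K27M values were 20.9, 6.2, 73.9 and 0.8 against 10.1, 1.4 and 2.6, with culture 59 (73.9) far above the other K27M libraries. The promoter of Ambra1, an autophagy regulator, scored 28.9.

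The 10 coding promoters that follow scored between 26.6 and 28.6. They were Kctd18 (28.6), Gfpt2 (28.4), the first enzyme of the hexosamine pathway, Relt (28.3), a receptor of the TNF receptor family, Pkmyt1 (27.8), a kinase that holds back entry into mitosis, Tollip (27.8), an adaptor of Toll-like receptor signalling, Snap25 (27.6), a SNARE protein of synaptic vesicle release, Sord (27.4), sorbitol dehydrogenase, Slc25a26 (27.1), the mitochondrial carrier of S-adenosylmethionine, H2afy2 (26.8), a macroH2A histone variant, and Clic4 (26.6). At Gfpt2 the K27M telencephalon percentiles were 84.8, 68.3, 51.3 and 56.0 and the Control ones 28.3, 8.5 and 27.9, without overlap, whereas in brainstem they were 42.1, 41.0 and 66.5 against 21.9, 51.1 and 36.9. At H2afy2 the brainstem values were 41.1, 58.1 and 50.1 in K27M and 11.4, 20.4 and 33.0 in Control, also without overlap, and the telencephalon values overlapped (45.0, 65.4, 58.5 and 28.9 against 11.3, 14.3 and 46.4). At Snap25 the Control values alone ran from 11.4 to 83.0, and at Relt from 22.9 to 94.7.

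**Figure D2:**
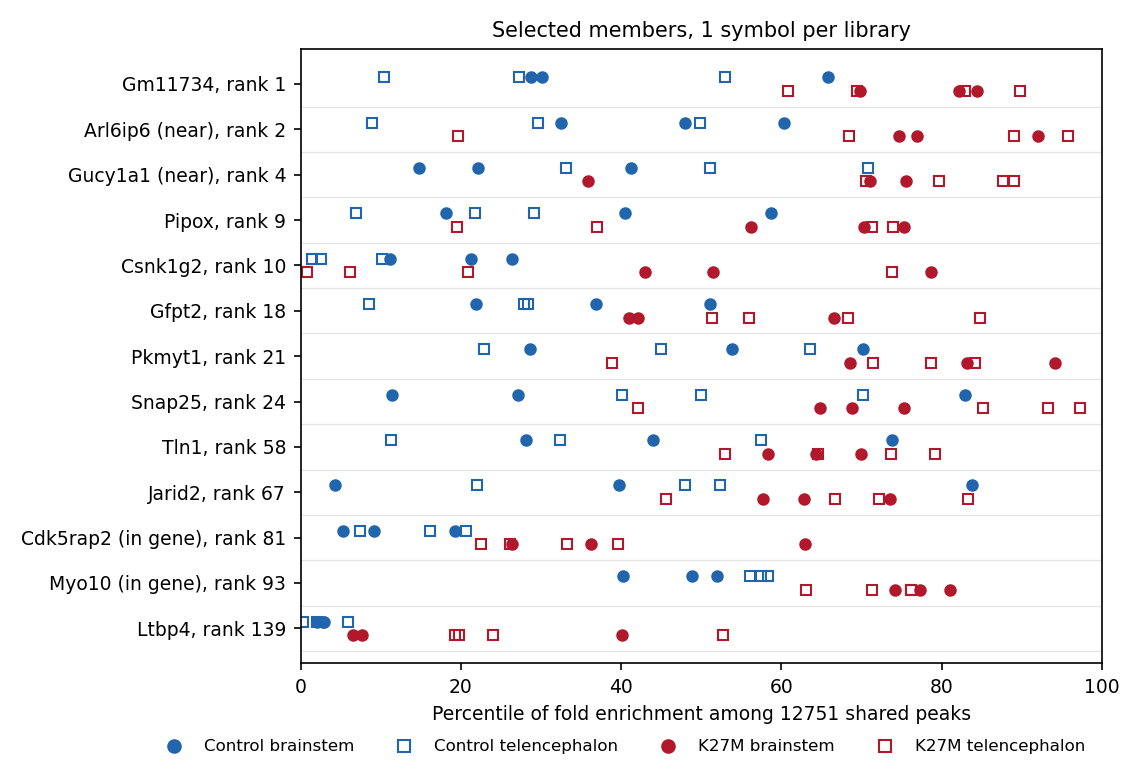
Percentile of fold enrichment (x axis) at 13 selected members (rows, with the rank of their score), 1 symbol per library, red for K27M and blue for Control, circles for brainstem and squares for telencephalon. At Cdk5rap2, Myo10 and Ltbp4 every red symbol lies to the right of every blue one, and at the other 10 rows at least 1 pair of libraries crosses.

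Complete separation of the genotypes was rare. All 7 K27M percentiles exceeded all 6 Control percentiles at 3 members and at 3 of 12751 shared peaks (0.0235%), and the reverse order was seen at 8 shared peaks. Since the score selects such peaks, nothing is read from their lying among the members, and they are named with their values known. At an intron of Myo10, an unconventional myosin of filopodia (chr15:25761597-25763190, score 22.4), K27M percentiles were 77.2, 81 and 74.2 in brainstem and 76.2, 63.1, 76.1 and 71.3 in telencephalon, and Control percentiles 48.8, 52.0 and 40.3 and 57.5, 58.4 and 56.0. The lowest K27M library stood at 63.1 and the highest Control library at 58.4, and the within-group SD was 4.68 points, small beside the median member. In fold these were 4.02 ± 0.34 (SD, n = 7) and 3.49 ± 0.37 (SD, n = 6).

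At an intron of Cdk5rap2, a centrosomal protein whose loss causes microcephaly (chr4:70259060-70260683, score 23.1), K27M percentiles were 36.2, 63.0 and 26.4 in brainstem and 33.2, 26.1, 22.5 and 39.6 in telencephalon, against 5.3, 19.2 and 9.2 and 20.7, 7.3 and 16.1 in Control. At the Ltbp4 promoter region (chr7:27335670-27336775, score 20.8), a gene for a latent TGF-beta binding protein, K27M percentiles were 40.1, 7.6 and 6.5 in brainstem and 52.7, 19.2, 24 and 19.8 in telencephalon. Control percentiles there were 2.9, 2.8 and 2.1 in brainstem and 0.3, 2.1 and 5.9 in telencephalon, the lowest part of the scale, and the lowest K27M library (6.51) lay just above the highest Control library (5.92). Ranked by -log10 p in place of fold, the score of Myo10 was 2.02 and that of Ltbp4 37.2.

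Within 1 region the order was more common. All 3 K27M brainstem percentiles exceeded all 3 Control brainstem percentiles at 112 members, against 604 of all shared peaks (4.74%), and the reverse order was seen at 557 shared peaks. In telencephalon the 4 K27M percentiles exceeded the 3 Control percentiles at 54 members and at 323 shared peaks (2.53%), with 370 in reverse. Both held at 11 members and at 15 of 12751 shared peaks (0.118%), and neither held at 145 members. The score uses the same percentiles, so nothing is read from the member counts. Besides Gm11734 and the 3 peaks above, the 11 were near Cxcr4, a chemokine receptor, and Btg2, an antiproliferative gene, in Sema5a, a semaphorin, and at the promoters of Lztr1, Cpeb3, Pitpna and Ubqln4. They are named with their values known.

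The regions contributed about equally to the members. The mean K27M percentile exceeded the mean Control percentile in both regions at 293 members, against 25.6% of all shared peaks, a count that the score largely fixes. The difference, which the score also shapes, had a median of 22.1 points in brainstem (range -7.44 to 47.9) and 19.9 in telencephalon (range -7.98 to 47.7). It was at least 10 in both regions at 238 members. The 7 exceptions, picked out by their values, were Cgnl1, Thap12, Xrn1, Apc and Fat1, with a difference in brainstem alone, and the noncoding gene CT025659.1 and Ogfod2, with one in telencephalon alone. At the promoter of Apc, a negative regulator of Wnt signalling, the K27M brainstem percentiles of 72.1, 75.4 and 67.4 lay above the Control ones of 20.5, 18.2 and 41.3, whereas telencephalon had 36.5, 40.4, 31.7 and 25.2 in K27M and 27, 42.3 and 55.0 in Control. In an exon of CT025659.1 the K27M telencephalon values were 75.1, 80.0, 83.0 and 85.9 against 18.7, 24.6 and 56.6, and the brainstem values were high in both genotypes (91.8, 59.1 and 90.5 against 93.5, 89.6 and 80.6).

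**Figure D3:**
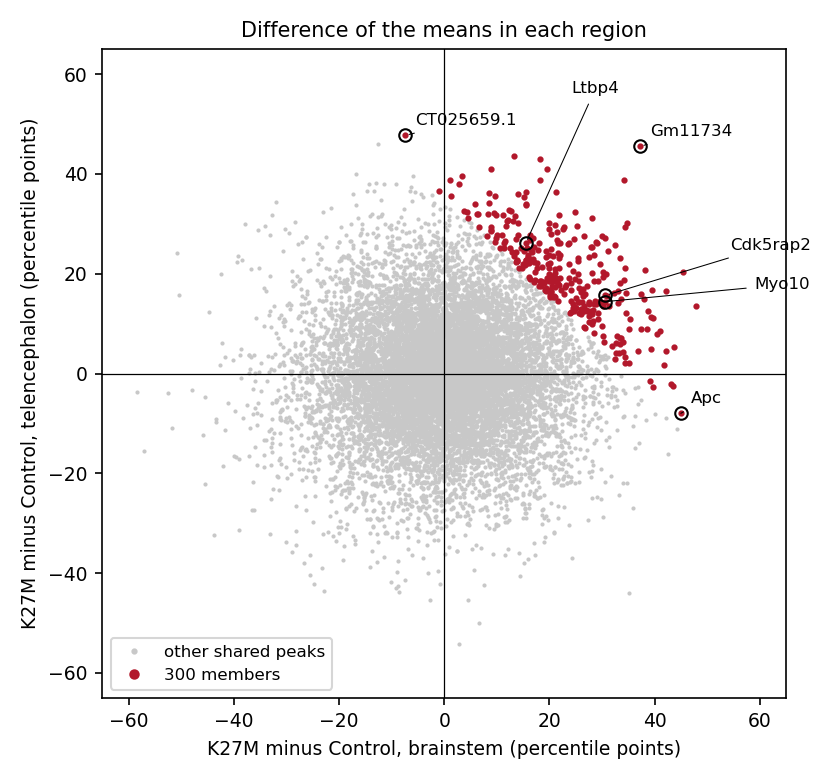
Mean percentile of K27M minus Control (percentile points) in brainstem (x axis) and telencephalon (y axis) at all 12751 shared peaks, with the 300 members in red and 6 of them circled and named. The members form the upper right edge of a round cloud whose Pearson r is 0.0413, and Apc (45.0 and -7.98) and CT025659.1 (-7.44 and 47.7) lie on the far side of an axis.

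Peaks chosen in 1 region carried little of their difference into the other. The 300 peaks with the highest brainstem difference (at least 24.8 points, median 29.0) had a median telencephalon difference of 2.98, against -0.0288 over all shared peaks, and 176 of them (58.7%) lay above 0 there, against 49.9%. The 300 peaks with the highest telencephalon difference had a median brainstem difference of 0.190, against 0.0837, and 154 (51.3%) lay above 0, against 50.3%. Of these sets, 128 and 101 peaks were members. The 2 regions may not have been sampled independently, because cultures of both regions share the numbers 41, 51, 59 and 61. The labels do not say what a number shared between regions stands for. The value of 2.98 turned to -0.716 without the K27M brainstem culture 41 and to -1.48 when only the 5 matched pairs of cultures were used.

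In matched cultures, those of 1 region and 1 culture number in both genotypes, every pair had a median above 0 at the members. These libraries also chose the members, so that sign is largely fixed. The median difference of the members was 28.8 points in brainstem culture 59 and 16.9 in brainstem culture 61, and 19.5, 24.9 and 15.4 in telencephalon cultures 51, 59 and 61. The number of members above 0 was 274, 228, 246, 250 and 232 in the same order (91.3%, 76%, 82%, 83.3% and 77.3%). Over all shared peaks the shares above 0 were 49.5%, 51.0%, 49.1%, 49.7% and 50.9%. At 86 members (28.7%) all 5 pairs were above 0, as they were at 2.93% of all shared peaks. Control telencephalon culture 59 had the fewest peaks of any library (16879, against 27768 to 52466 in the others) and the lowest median fold over shared peaks (2.89, against 3.19 to 4.05). Its part in the 59 pair was not tested, but without it 157 of the 300 members stayed among the 300 highest scores.

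Region and the genotype by region interaction are contrasts other than the score. They were tested with limma on the percentiles of all shared peaks, with the culture number as a block. Both come from the same libraries and percentiles as the score. K27M telencephalon had 4 libraries and the other groups 3, so these contrasts are not independent of the score. The choice of peaks can shift both at the members, and nothing is read from their medians there. Neither called any peak, and with 3 or 4 cultures a group a p that misses the threshold does not show that the values were alike. The fitted region difference, brainstem minus telencephalon, had a median of 3.00 points at the members and 0.00392 over all shared peaks, with a median SE of 9.63 and 8.37. The median interaction was 2.90 and 0.126, with a median SE of 19.3 and 16.7. Between brainstem and telencephalon, averaged over genotypes, 0 members and 0 of 12751 shared peaks (0%) passed an adjusted p of 0.05, and the smallest limma adjusted p was 0.753 among members and 0.116 over all. At an unadjusted p under 0.05, 17 members (5.67%) differed by region, 12 higher in brainstem and 5 in telencephalon, against 837 shared peaks (6.56%). The lowest p among members belonged to CT025659.1, which was 26.4 points higher in brainstem (SE 7.88, limma unadjusted p = 0.00383, adjusted p = 0.753). Tcaf2 was 19.7 points higher in brainstem (SE 6.08) and Sema5a had a fitted difference of -16.7 (SE 5.24), and neither passed after adjustment.

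The genotype by region interaction asks whether the K27M difference was larger in brainstem or in telencephalon. It called 0 members and 0 shared peaks (0%), and the smallest limma adjusted p was 0.987. At an unadjusted p under 0.05 it held 9 members (3%) and 545 shared peaks (4.27%). The largest of these members were CT025659.1 (-56.5 points, SE 15.8) and Apc (51.3 points, SE 18.5), both with a limma adjusted p of 0.987. The genotype contrast, which without the block is the score that chose the members, called 0 of 12751 shared peaks (0%) and 0 members. Its smallest limma adjusted p was 0.978, and 601 peaks (4.71%) had a limma unadjusted p under 0.05. These p-values measure the spread left between cultures once culture number was fitted, with a variance partly shared over all peaks.

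In genomic place the members mirrored the shared peaks. Promoters, taken from 2 kb upstream to 1 kb downstream of a transcription start, held 208 members (69.3%) against 69.2% of all shared peaks. The bodies of genes held 54 (18%) against 18.2%, and intergenic DNA held 38 (12.7%) against 12.6%. The 300 peaks with the lowest scores, those ranked highest in Control, were promoters in 49.0% of cases, genic in 31.7% and intergenic in 19.3%. Of the member promoters, 192 belonged to coding genes and served 222 of them, since 29 peaks were shared by more than 1 coding gene, and 16 belonged to noncoding genes alone.

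The GC content of the 300 bp windows had a median of 61.7% at the members, 60.7% over all shared peaks and 54.0% at the 300 lowest scores, and the median number of CpG dinucleotides was 21, 19 and 7. Median widths were 1615, 1666 and 1551 bp. Base composition and place thus differed less between members and all shared peaks than between the 300 lowest scores and all shared peaks, as counts and medians with no test.

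**Figure D4:**
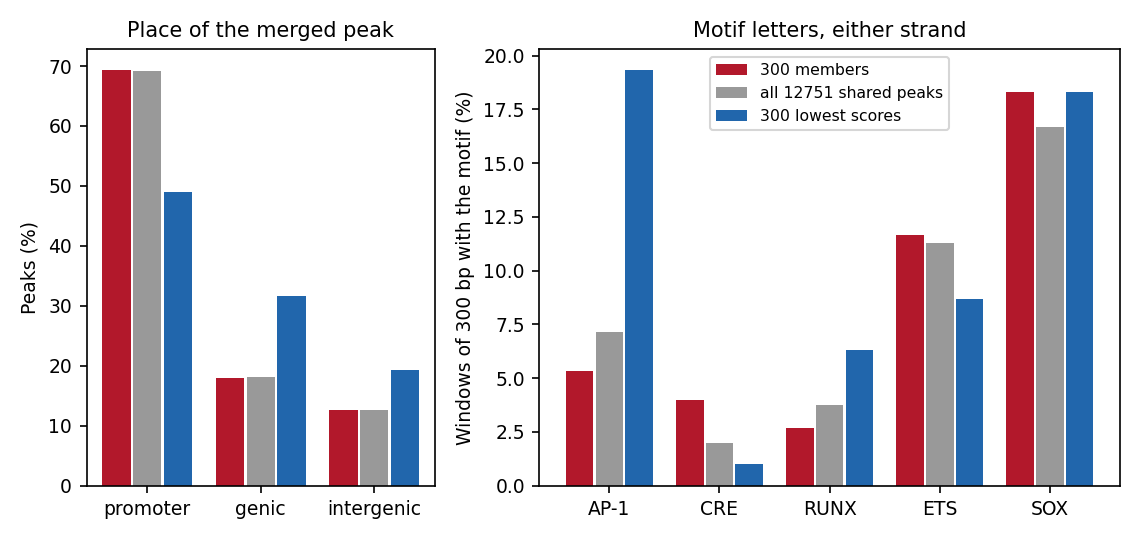
Share of peaks at promoters, in gene bodies and between genes (left, percent) and share of 300 bp windows holding a motif on either strand (right, percent) for the 300 members (red), all 12751 shared peaks (grey) and the 300 lowest scores (blue). Red and grey bars are nearly level for place, and the blue bar for AP-1 reaches 19.3% against 5.33% and 7.13%.

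Motif letters were searched on both strands of the same windows. AP-1 (TGANTCA), the site of Fos and Jun factors, was held by 16 members (5.33%), by 7.13% of all shared peaks and by 19.3% of the 300 lowest scores. RUNX (TGTGGTT) followed the same order, with 2.67%, 3.74% and 6.33%. CRE (TGACGTCA) ran in the other direction, with 12 members (4%), 1.98% of all shared peaks and 1% of the 300 lowest scores, and at promoters alone the shares were 5.77% of members and 2.52% of shared peaks. The score of the 253 shared peaks with a CRE had a median of -0.0578, close to that of all shared peaks. AP-1 windows had a median score of -1.85, and outside promoters of -2.55, against -0.144 at peaks outside promoters without the motif. Windows with both AP-1 and CRE numbered 2 among the members and 10 among all shared peaks.

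The other motifs are given as shares with no test. ETS (CCGGAAG) was held by 11.7% of members and 11.3% of all shared peaks, SOX (ACAANGG) by 18.3% and 16.7%, the E-box CAGCTG by 22.7% and 23.0%, the E-box CAGATG by 18.3% and 16.3%, TEAD (GGAATG) by 13% and 12.1%, and NRF1 (TGCGCATGC) by 1% and 1.30%. The RFX site (GTTGCCATG) was in 1 member (0.333%) and 1.07% of all shared peaks, the NFI palindrome in 1.33% and 1.62%, and the CTCF core in 3.00% and 3.14%. Motifs were searched 1 at a time and may overlap each other.

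The 12 members with a CRE, printed above and picked out by their sequence once values were known, scored between 18.5 and 27.1. They were the promoters of Slc25a26 (27.1), Bnip3l (25.3), a mitophagy receptor, Trp53inp2 (25), an autophagy factor, Fntb (24.4, shared with Churc1), the beta subunit of farnesyltransferase, Gtpbp6 (21.5, shared with Zfp605), Orc5 (21.5), of the origin recognition complex, Rcan1 (21.3), a calcineurin inhibitor, Tinf2 (20.5), of the telomere complex shelterin, Senp2 (20.4), a SUMO protease, Appbp2 (20.0), Ahcyl1 (19.1) and Skp1a (18.5), of the SCF ubiquitin ligase. All of them were higher in K27M in both regions, as were 97.7% of all members, which the score largely fixes. The differences ran from 5.9 points at Appbp2 to 26.5 at Slc25a26 in brainstem. In telencephalon they ran from 13.2 at Ahcyl1 to 35.4 at Bnip3l. Over all 222 shared promoter peaks with a CRE the median score was 0.269, against 0.349 over all shared promoter peaks. At Slc25a26 the K27M percentiles were 43.3, 95.4 and 75.1 in brainstem and 61.7, 71.9, 66 and 74.4 in telencephalon, and the Control percentiles 42.3, 28.2 and 63.6 and 39.9, 38.1 and 44.6, overlapping in brainstem and apart in telencephalon.

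Of 15 gene lists on signalling pathways and cell types, 6 had genes with a member at a promoter, 7 genes in all. For scale, 208 of all 8824 shared promoter peaks were members, a share at which short lists hold few or no members. In the BMP pathway it was Bmpr1b, a type I receptor, 1 of 12 genes with a shared promoter peak (score 18.2). Its K27M telencephalon percentiles of 75.5, 71.6, 78.0 and 72.7 were tightly grouped, and the Control telencephalon values of 58.9, 20.2 and 76.5 spread across them. In the Wnt list it was Apc, 1 of 15 (18.5). Among integrin genes these were Itga1, an alpha subunit (17.7), and Tln1, which encodes talin, the link from integrins to actin (24.8), 2 of 12. The Tln1 peak is also the promoter of Creb3, and its K27M percentiles ran from 53.0 to 79.2 (median 64.6) and its Control percentiles from 11.2 to 73.8 (median 38.2).

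In the list of PRC2 and H3.3 genes the member was Jarid2, a PRC2 accessory subunit, 1 of 13 (24.1), with K27M percentiles from 45.6 to 83.4 (median 66.7) and Control percentiles from 4.3 to 83.9 (median 43.8). The promoter of the mutated gene H3f3a was no member, with a score of -3.67, 4.42 points in brainstem and -11.8 in telencephalon. In the cell cycle list it was Rb1, the retinoblastoma gene, 1 of 23, at a peak shared with Lpar6 (19.2). Snap25 was 1 of 7 neuronal markers. There were 0 members at promoters of the Notch (14 genes with a shared peak), TGF-beta (10), OPC (14), myelin (5), astrocyte (4) and immediate-early (15) lists and of the genes the study treats as K27M-responsive (1), and the microglial and endothelial lists had 0 shared promoter peaks. Lists of this length would hold few or no members at the share over all promoters, so nothing is read from these counts. Promoter peaks of 4 listed genes lay among the 300 lowest scores, those of Smad3 (TGF-beta list, -31.0), a mediator of TGF-beta signalling, Elavl4 (neuronal, -25.6), an RNA-binding protein, Slc1a2 (astrocyte, -19.6), a glutamate transporter, and Sox6 (OPC, -18.1), a transcription factor. Elavl4 had another shared promoter peak with a score of 6.63, and the highest of 3 at Sox6 was -0.119. Apc, Jarid2 and Rb1 had 2 shared promoter peaks each, of which 1 was a member. The median score of a list ran from -8.03 for the single K27M-responsive gene and -6.46 for astrocyte markers to 2.66 for myelin genes, against 0.349 over all shared promoter peaks, and no peak of any list was called for region or for the interaction.

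The members were spread over the genome. They made up between 1.64% (chromosome 4) and 3.83% (chromosome 12) of the shared peaks of a chromosome, against 2.35% in all, and 3.25% (4 of 123) of those within 10 Mb of H3f3a, the edited locus. The closest neighbours were 2 members 4742 bp apart in introns of Sdk2, a synaptic adhesion gene (scores 24.3 and 18.7), picked out once their positions were known. The next closest pair, Lmna and Ubqln4, was 41498 bp apart.

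The membership depended on which values were ranked and on single cultures. Ranking by -log10 p kept 164 of the 300 members among the 300 highest scores and reducing every library to 16879 peaks kept 192. Leaving out 1 library kept between 157 (without Control telencephalon culture 59) and 242. No score of a named peak changed sign in any alternative in which the peak was present, which their choice by high scores largely fixes.

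**Figure D5:**
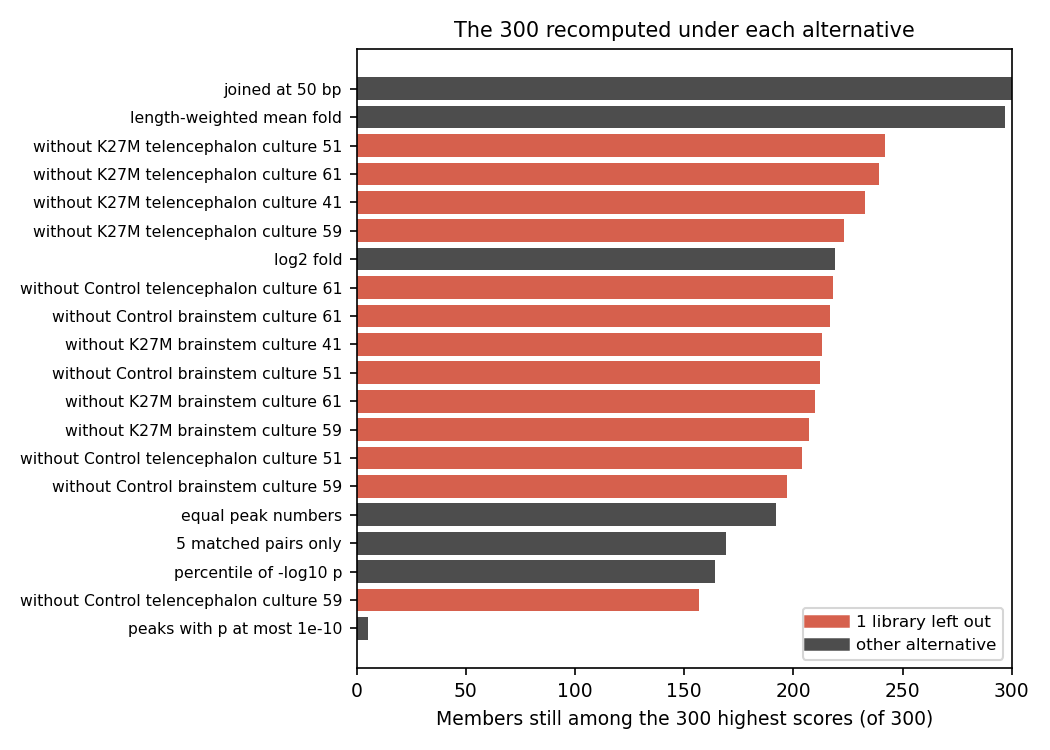
Number of the 300 members that remained among the 300 highest scores (x axis) under each of 20 alternatives (rows), red where 1 library was left out and grey for other changes. With peaks at a p-value of 1e-10 or less 5 remained, because only 5 members were among the 853 shared peaks, and joining peaks at 50 bp kept 300.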

How the data were processed

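ATAC-seq of 13 OPC cultures was represented by 1 list of broad peaks per library. Per the labels and the study, the authors used BWA 0.7.17-r1188 for alignment against mm10, a blacklist to drop problematic regions, and the broad mode of MACS2 2.2.7.1 on single libraries. The deposited fold enrichment, a ratio over local background averaged across a peak, was ranked, and the deposited −log10 p and −log10 q served alternatives and format checks. A broad cutoff is stated with the ChIP-seq peak calling, and the cutoff for ATAC-seq is not given in the sources used here. Lists hold no reads, so depth is unknown and no counting interval was computed.

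Peaks overlapping by at least 1 bp were joined (487975 peaks, 99746 merged, 12751 autosomal and shared by 13 libraries), using the highest fold of each library. The members, gene lists and motifs were chosen with earlier results of these data known. Percentiles were fitted with limma 3.58.1 in R 4.3.3 (4 groups, culture number as a block, Benjamini-Hochberg over all shared peaks). The block follows the matched cultures of the study, and deviations of same-numbered cultures correlated between -0.0464 and 0.121. The script was tested on simulated data, in which the region fit called few of the changes that had been put in. Genes and promoters came from GENCODE M21 and sequences from GRCm38. Named peaks were the 15 highest scores, the next 10 at coding promoters, up to 10 at listed genes (7 were found) and the 3 on either side of the limit. The 3 separated peaks and others marked in the text were added with their values known. Alternatives changed the ranked value, peak threshold, peak number, overlap, libraries and block.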

Additional observations from a re-analysis of the deposited data

Results flagged for a closer look

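In the 4 K27M telencephalon cultures, 1 library stood far from the other 3 at 5 of 40 values examined. The gap passed the 95% critical value of Dixon's test, used here only to pick values out. The values came from peaks chosen by scores that use these percentiles. The rate of 1 in 20 for unselected values therefore does not apply to them. At the peak near Rerg, culture 51 had a percentile of 5.94 against 46.6 to 52.6 in the others. Culture 59 was low at the Gm44148 promoter (57.4 against 87.2 to 89.9) and in H13 (55.2 against 84.8 to 90.6). Culture 41 was high at Ltbp4 (52.7 against 19.2 to 24), and culture 51 was high at the peak near Creb5 (77.0 against 49.4 to 51.6). No culture was the distant one at more than 2 of the 5 peaks.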

How the results depend on the processing

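Leaving out 1 library at a time kept 157 to 242 of the 300 members, with 157 without Control telencephalon culture 59 and 197 without Control brainstem culture 59. It gave 6 to 19 completely separated peaks, more than the 3 with all libraries, since fewer libraries have to be ordered. The carry-over from brainstem to telencephalon ranged from -0.716 (without K27M brainstem culture 41) to 3.32, and from telencephalon to brainstem from -0.592 to 3.34 (without K27M brainstem culture 61). Ranking by −log10 p kept 164 members and separated 16 peaks. Peaks with a p of 1e-10 or less left 853 shared peaks, 5 members, 173 of the 300 highest above 0 in both regions, a carry-over of 0.0830 and 1 separated peak, and equal peak numbers kept 192 members and 1 separated peak. Using the replicate block of 5 matched pairs kept 169 members and turned the carry-over from brainstem to -1.48, and without the block limma again called 0 members by region, 0 in the interaction and 0 shared peaks by genotype. The cause of these shifts was not tested. The number of the 300 highest scores at promoters ran from 155 (by −log10 p, and without Control telencephalon culture 59) to 246. Of 724 scores recomputed for 39 named peaks, 720 moved by less than the within-group SD and 4 by more. Those on the log2 scale were compared by sign alone. There were 0 changes of sign, which the choice of these peaks by high scores largely fixes. Only log2 fold gave any call, 3 shared peaks by region and 0 members.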
